A study of Mus musculus with 99 samples.

Results

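The mouse mitochondrial genome carries 13 protein-coding genes, 2 ribosomal RNA genes and 22 transfer RNA genes. Described here are 10 of the protein-coding genes: mt-Nd1, mt-Nd2, mt-Nd4, mt-Nd5 and mt-Nd6 of complex I, mt-Cytb of complex III, mt-Co1, mt-Co2 and mt-Co3 of complex IV, and mt-Atp6 of complex V. They were taken by name, through the Ensembl identifiers that map to these symbols, and the rule used no measured value. The list itself was chosen with earlier results of these data known. All 10 had counts, so they make up 10 of the 37991 rows of the count table. The study profiled messenger RNA in mice exposed to social defeat, in which a mouse is repeatedly attacked by a larger aggressor, to compare susceptibility with resilience and to compare responses to 2 antidepressant drugs. Its 99 libraries came from the nucleus accumbens, the amygdala, the hippocampus and the prefrontal cortex.

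The conditions were the same in each of the 4 regions. Susceptible mice given ketamine made up a responder group and a non-responder group of 3 libraries each. Susceptible mice given imipramine made up a responder group of 3 libraries and a non-responder group of 4. Resilient mice given saline had 4 libraries and susceptible mice given saline had 3. Control mice given saline had 5 libraries, or 4 in the hippocampus. Every library held tissue pooled from 2 mice. The labels give no strain, sex, age, dose or time after treatment, and leave unsaid whether 1 mouse gave tissue to more than 1 region.

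The proteins made from these genes are core subunits of the respiratory chain, which pumps protons across the inner mitochondrial membrane, and of the ATP synthase that uses the resulting gradient. The mitochondrial genome is transcribed from both strands as long precursor RNAs, from which messenger RNAs are cut out, largely at the transfer RNAs that lie between them, and most then receive a short poly-A tail. Because that tail is added in the mitochondrion, these RNAs are captured together with nuclear messenger RNA when libraries are selected for poly-A, as they were here. Apart from the products of the 13 mitochondrial protein-coding genes, the subunits of these complexes are encoded in the nucleus. Neurons depend heavily on this pathway for ATP.

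The ends of the genes are shown because poly-A selection captures a transcript by its tail, and for several members the tail completes the reading frame. The last 30 bases of 4 members, read from the GENCODE M21 transcripts of build GRCm38, are given here with the stop codon, or the part of it that the genome encodes, in capitals.
mt-Nd4: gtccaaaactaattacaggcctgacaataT
mt-Cytb: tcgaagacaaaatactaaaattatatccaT
mt-Co3: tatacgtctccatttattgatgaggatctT
mt-Co1: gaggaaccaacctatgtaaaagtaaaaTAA
mt-Nd4, mt-Cytb and mt-Co3 end in a lone T, and the adenines of the tail are known to complete the stop codon. mt-Co1 carries a whole one.

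The ends of mt-Nd5 and mt-Nd6 are shown because these genes run on opposite strands and share their last bases. mt-Nd6 is the only member on the strand opposite to the other 9, and in human cells its messenger RNA is known to lack a stable poly-A tail. The 14 shared bases are in capitals, each gene being written on its own strand.
mt-Nd5: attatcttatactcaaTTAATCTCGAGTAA
mt-Nd6: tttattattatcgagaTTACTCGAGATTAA
The library kit did not mark the strand, so reads from mt-Nd6 and from RNA antisense to it could not be told apart, and the values of mt-Nd6 are uncertain for that reason. mt-Atp6 shares 43 bases with mt-Atp8 on the same strand, and its values are uncertain too.

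Copies of mitochondrial DNA in the nuclear genome are a second source of uncertainty. Of all windows of 50 bases, the read length, in mt-Co2, mt-Co3 and mt-Atp6, 100%, 99.9% and 99.5% also occurred in an annotated nuclear transcript. The share was 62.2% for mt-Nd4, 51.1% for mt-Co1, 8.19% for mt-Nd2 and 7.61% for mt-Nd5. It was 0% for mt-Nd1, mt-Nd6 and mt-Cytb, so reads of these 3 shared no 50-base window with an annotated nuclear transcript. How reads that match more than 1 place were counted is not given in the sources used here.

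Total counts per library ranged from 14459028 to 59187954, with a median of 31086420, and the lowest count of any member in any library was 6834. All 10 members passed the filter on low counts. By list mean, markers of striatal neurons were highest in the nucleus accumbens and those of the hippocampus in the hippocampus. Cortex markers were highest in the prefrontal cortex and amygdala markers in the amygdala. These lists were chosen with earlier results of these data known, so they are no independent check of the labels. Etv1 stood in both the cortex and the amygdala list. Wfs1, of the hippocampus list, was called higher in the nucleus accumbens than in each other region of control mice. In 2 libraries, nucleus accumbens imipramine responder replicate 3 and amygdala imipramine responder replicate 2, long nuclear transcripts of at least 6000 bases were low relative to short ones of at most 1000 bases. The log2 ratio of long to short transcripts, relative to the median of the region, was -2.41 and -2.32 in these libraries, against -0.78 in the next lowest library and 0.25 in the highest. Imipramine responder values of these 2 regions are given with and without them.

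The 10 members together took between 4.46% and 8.16% of all counts, with a median of 5.60% over the 99 libraries. The share was 6.75% ± 0.649 in the nucleus accumbens (SD, n = 25), 5.47% ± 0.499 in the amygdala (SD, n = 25), 5.34% ± 0.371 in the hippocampus (SD, n = 24) and 5.40% ± 0.331 in the prefrontal cortex (SD, n = 25). The nucleus accumbens therefore held the highest mean, and its libraries, from 5.47% to 8.16%, reached down into the ranges of the other regions. The highest shares of the nucleus accumbens, 8.16%, and of the amygdala, 7.08%, came from the 2 libraries low in long transcripts. Next below them were 7.91% in nucleus accumbens control replicate 5 and 6.33% in amygdala resilient replicate 1. In bulk tissue, fewer cells of a type and less RNA per cell cannot be told apart, which applies to every value below.

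**Figure D1:**
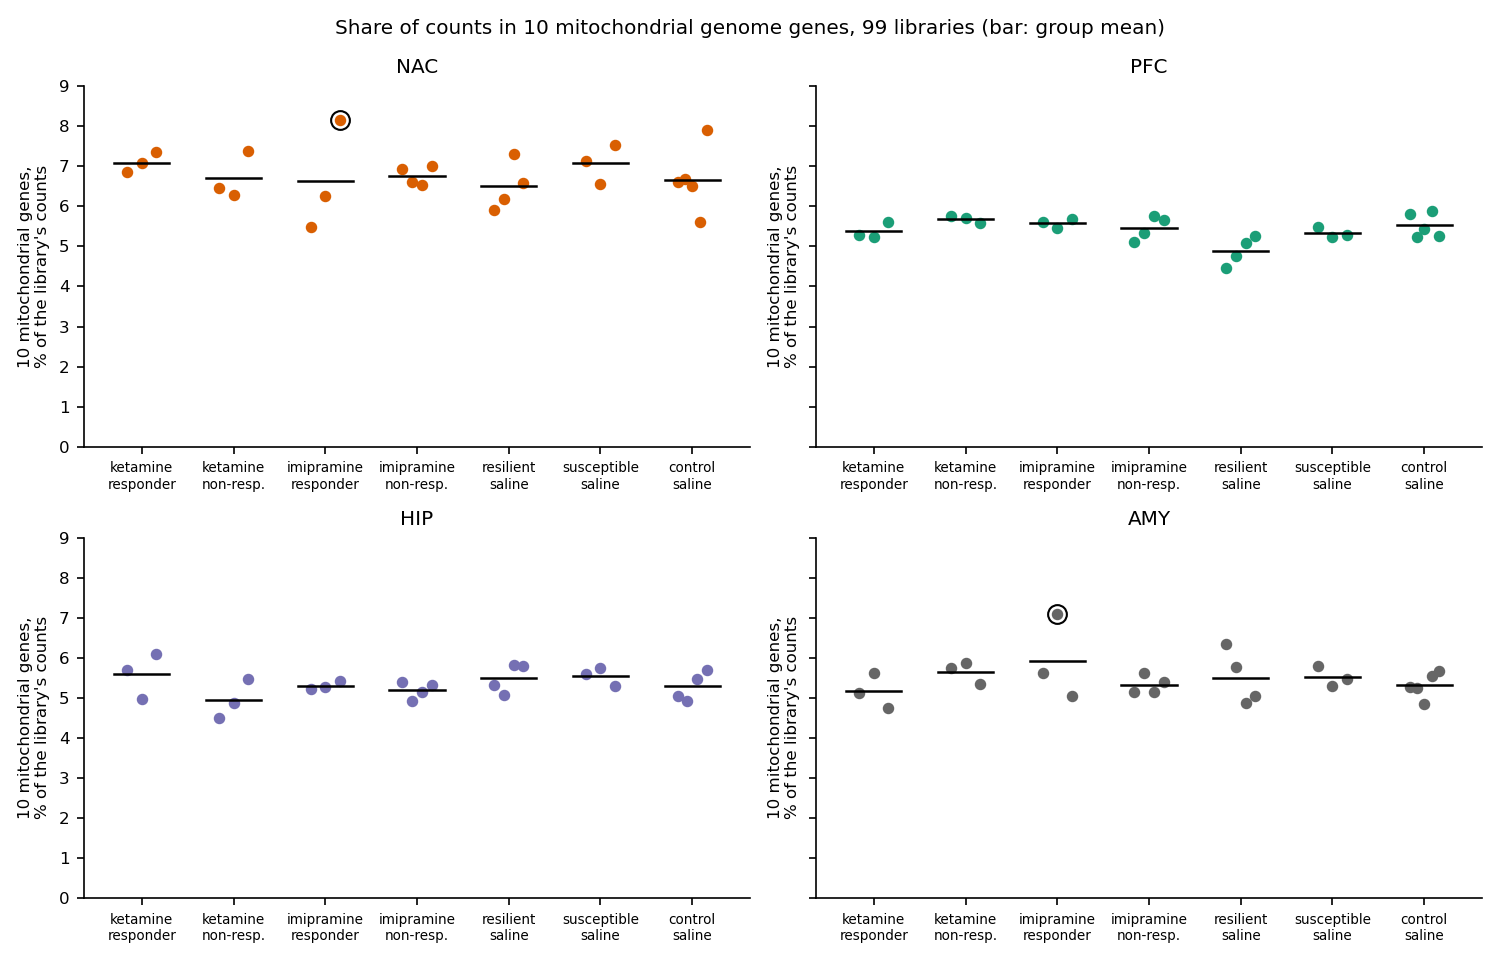
Summed share of each library's counts taken by the 10 members (vertical axis, percent), by region (NAC, nucleus accumbens; PFC, prefrontal cortex; HIP, hippocampus; AMY, amygdala) and condition, with 1 point per library, a bar at the group mean and a ring around the 2 libraries low in long transcripts. The nucleus accumbens libraries lie between 5.47% and 8.16%, and the prefrontal cortex resilient libraries between 4.46% and 5.26%.

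Levels differed widely among the members. Per kilobase of transcript, the median level over 99 libraries was highest for the complex IV subunits, at 10638 CPM (the count scaled to library size) per kilobase for mt-Co1, 8503 for mt-Co3 and 8218 for mt-Co2. mt-Cytb, the single mitochondrially encoded subunit of complex III, followed at 6246. The complex I subunits spanned 4736 for mt-Nd1, 4452 for mt-Nd4, 3431 for mt-Nd2, 2405 for mt-Nd5 and 2098 for mt-Nd6. mt-Atp6, the proton-channel subunit of the ATP synthase, was lowest at 841 CPM per kilobase. mt-Co2, mt-Co3 and mt-Atp6 are the members with identical or near-identical nuclear copies, and they lie at both ends of this order. The part of these copies in the levels was not tested.

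**Figure D2:**
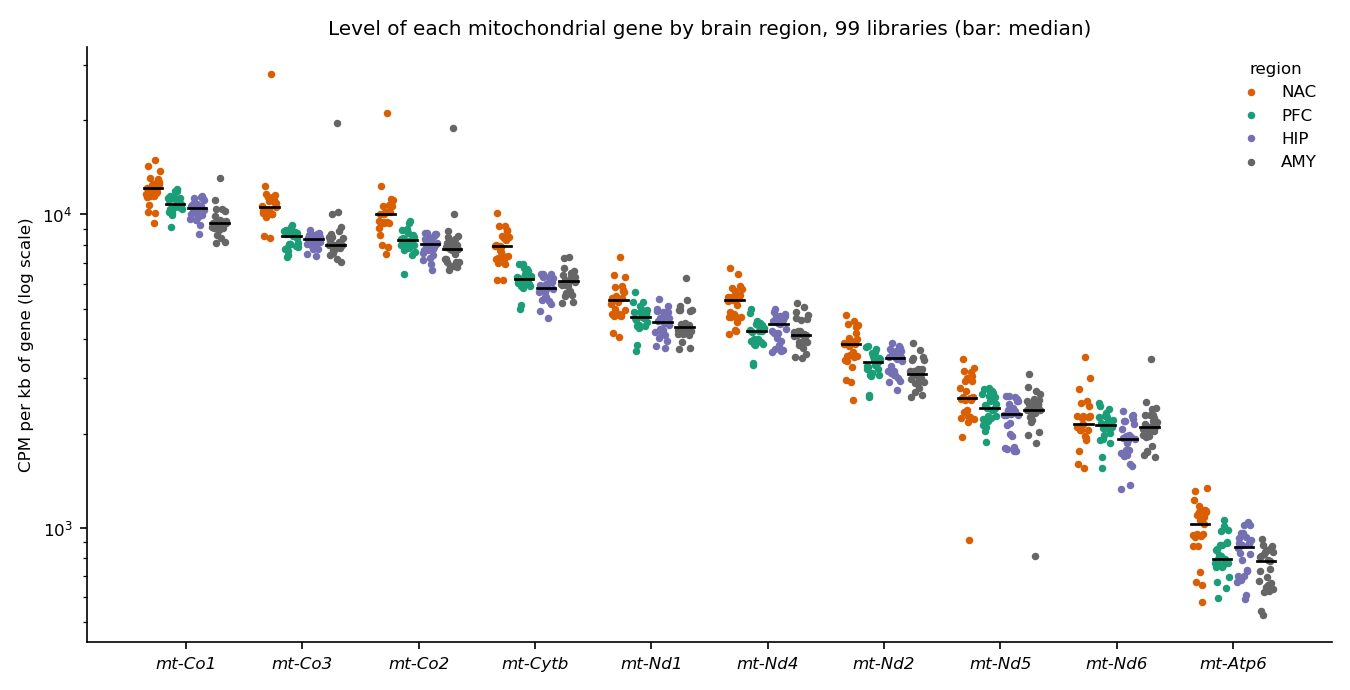
Level of each member in each library (CPM per kilobase, log axis), coloured by region, with 1 point per library and a bar at the median of each region. mt-Co1 has the highest median, 10638 CPM per kilobase, and mt-Atp6 the lowest, 841.

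The make-up of the members' counts was described apart from their level. mt-Co1 supplied a median of 29.1% of the members' counts, mt-Cytb 13.0%, mt-Co3 12.1%, mt-Nd4 10.9%, mt-Co2 10.2%, mt-Nd5 7.90%, mt-Nd1 7.88%, mt-Nd2 6.21%, mt-Nd6 1.91% and mt-Atp6 1.04%. Relative to the mean of the members, the SD within groups on the log2 scale was 0.039 for mt-Cytb and 0.067 for mt-Co1, against 0.129 for the mean of the members itself. The least steady members were mt-Nd5 at 0.266, mt-Atp6 at 0.222, mt-Co3 at 0.175 and mt-Co2 at 0.170. Without the 2 libraries low in long transcripts, these SDs were 0.117 for mt-Nd5, 0.206 for mt-Atp6, 0.069 for mt-Co3 and 0.094 for mt-Co2, against 0.124 for the mean of the members. In the remaining 97 libraries, then, mt-Atp6 was the 1 member whose share varied more than the members' mean level.

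mt-Co3, a structural core subunit of cytochrome c oxidase, took 24.8% and 20.6% of the members' counts in those 2 libraries, in the nucleus accumbens and the amygdala, against 11.2% to 14.3% in the other libraries. mt-Co2, which receives electrons from cytochrome c, took 16.3% and 17.3%, against 8.84% to 12.3% elsewhere. mt-Nd5, a proton-pumping subunit of complex I and the longest member at 1824 bases, took 1.89% and 2.00%, against 6.09% to 9.52% elsewhere. The short mt-Co2 (684 bases) and mt-Co3 (784 bases) were thus high, and the long mt-Nd5 low, in the same libraries in which long nuclear transcripts were low. Length did not order all members: mt-Co1, the second longest at 1545 bases, took 26.0% and 27.2%, within the 25.9% to 32.1% of the other libraries. mt-Atp6, with 681 bases, did not go with the short ones: its share reached down to 0.446% with these libraries and ran from 0.685% to 1.34% without them.

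**Figure D3:**
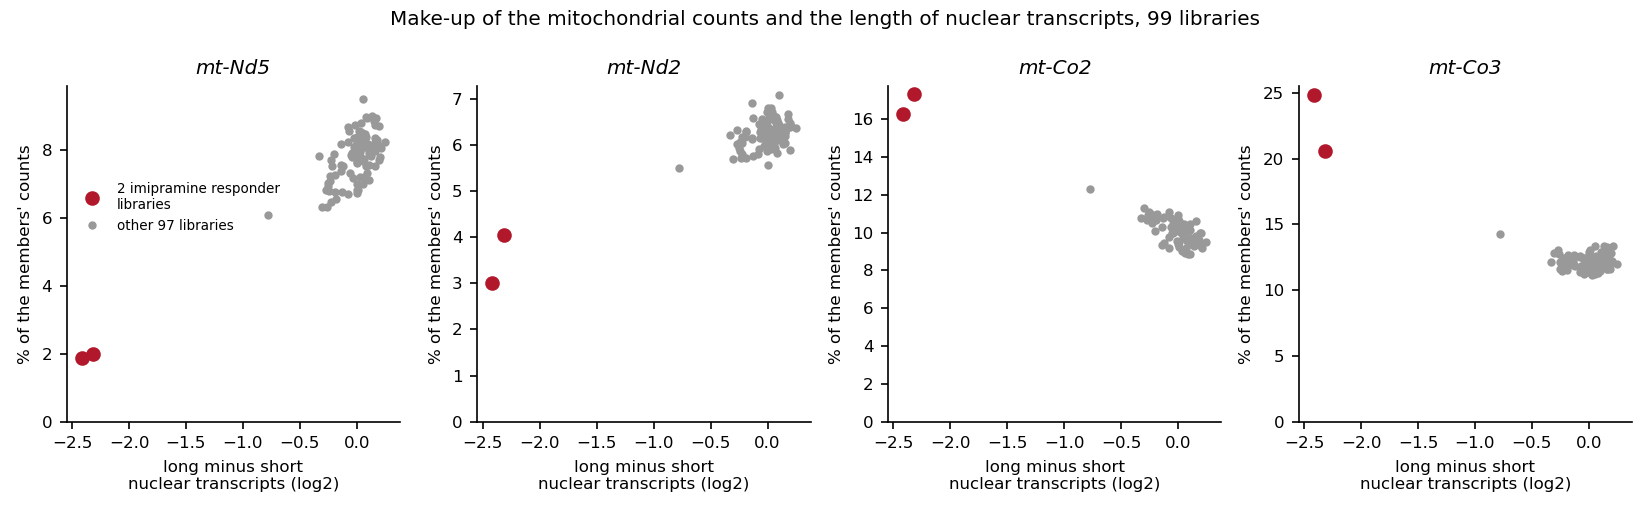
Share of the members' summed counts taken by mt-Nd5, mt-Nd2, mt-Co2 and mt-Co3 (vertical axes, percent), 1 point per library, against the log2 ratio of long to short nuclear transcripts relative to the region's median (horizontal axis). The 2 libraries at -2.41 and -2.32 stand apart from the others, with mt-Co3 at 24.8% and 20.6% and mt-Nd5 at 1.89% and 2.00%.

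The first comparison asked whether the members differ between regions in control mice. In the main fit, mt-Cytb, mt-Nd4 and mt-Atp6 were called higher in the nucleus accumbens than in each of the other 3 regions. mt-Co1 was called higher there than in the hippocampus and amygdala. Several other settings called fewer members, as given below. These genes serve complexes III, I, V and IV. Differences were modest, between 0.22 and 0.57 on the log2 scale for the members that passed the test. mt-Co1 was also lower in the amygdala than in the prefrontal cortex, and no member passed the test between the amygdala and the hippocampus or between the hippocampus and the prefrontal cortex. All tests between regions were edgeR quasi-likelihood F-tests in 1 fit of 28 groups, with Benjamini-Hochberg adjustment over 19024 genes and a threshold of 0.05.

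mt-Cytb carries the electrons of complex III from ubiquinol towards cytochrome c. In control mice its level was 9074, 9138, 8246, 7051 and 11541 CPM in the nucleus accumbens. It was 6859.7, 6829.9, 5959.8, 7309 and 7727 CPM in the amygdala, 6470.4, 5609.6, 6820.3 and 7406 CPM in the hippocampus, and 7244, 6926, 7053, 7976 and 7174 CPM in the prefrontal cortex. Replicate 4 of the nucleus accumbens fell among the libraries of the other regions, and its other 4 libraries lay above all of them. By edgeR, mt-Cytb was higher in the nucleus accumbens by 0.31 on the log2 scale against the prefrontal cortex (SE 0.088, adjusted p = 0.00228). Against the hippocampus the difference was 0.45 (adjusted p = 3.5e-05, edgeR), and against the amygdala 0.38 (adjusted p = 2.46e-04, edgeR).

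mt-Co1 is the catalytic subunit of cytochrome c oxidase, which passes electrons to oxygen. Its level in control mice was 18009, 17596, 18757, 15687 and 22039.6 CPM in the nucleus accumbens. It was 14095, 14539, 14105, 13956 and 15284 CPM in the amygdala, 14936, 15522, 16441 and 16565 CPM in the hippocampus, and 17470.4, 15721, 17167, 17664 and 16057 CPM in the prefrontal cortex. Every nucleus accumbens library lay above every amygdala library, and every amygdala library lay below every prefrontal cortex library. The nucleus accumbens exceeded the amygdala by 0.36 (adjusted p = 1.59e-04, edgeR) and the hippocampus by 0.22 (adjusted p = 0.0342, edgeR). mt-Co1 in the amygdala was lower than in the prefrontal cortex by a log2 difference of -0.22 (SE 0.080, adjusted p = 0.0259, edgeR).

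mt-Atp6 showed the largest of the called differences. It was measured at 596, 648, 836, 637 and 892 CPM in the nucleus accumbens of control mice, against 461, 550.5, 497, 369 and 552 CPM in the amygdala, 457, 588, 479.5 and 631 CPM in the hippocampus, and 528, 511, 581, 458 and 584 CPM in the prefrontal cortex. All nucleus accumbens libraries lay above all libraries of the amygdala and prefrontal cortex, and 1 of them overlapped with the hippocampus. The log2 difference of the nucleus accumbens was 0.57 against the amygdala (adjusted p = 0.00101, edgeR), 0.42 against the hippocampus (adjusted p = 0.0240, edgeR) and 0.44 against the prefrontal cortex (adjusted p = 0.0104, edgeR).

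Counted over the members, 7 of 10 were called higher in the nucleus accumbens than in the amygdala, where 20.1% of all genes tested were called higher. The other 4 beyond those named above in this pair are mt-Nd4 at 0.30 (adjusted p = 0.00995), mt-Nd2 at 0.27 (0.0149), mt-Co2 at 0.40 (0.0169) and mt-Co3 at 0.34 (0.0488), all by edgeR. Against the hippocampus 4 of 10 were called higher, with 21.8% of all genes called higher, and mt-Nd4 differed by 0.28 (adjusted p = 0.0243, edgeR). Against the prefrontal cortex 3 of 10 were called higher, with 25.2% of all genes called higher, and mt-Nd4 differed by 0.24 (adjusted p = 0.0397, edgeR). The last count is close to the share of all genes. Fewer members were called with DESeq2, with RLE in place of TMM scaling, with scaling on nuclear genes only or without the filter. Each of these settings called 6 members against the amygdala and 2 against the prefrontal cortex. Against the hippocampus DESeq2 called 4 and the other settings called 3. The median log2 difference of the members was 0.32, 0.25 and 0.18 in these pairs, in the order amygdala, hippocampus and prefrontal cortex, against 0.015 over all genes in the pair with the amygdala, 0.027 in that with the hippocampus and 0.045 in that with the prefrontal cortex. The 3 pairs share the nucleus accumbens libraries.

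The remaining 3 pairs held 1 call. In the amygdala against the prefrontal cortex, mt-Co1 was 1 of 10 called lower, with 14.2% of all genes called lower, and the median of the members was -0.14. Between the amygdala and the hippocampus the median was -0.020, and edgeR and DESeq2 each called 0 members, with 33.8% of all genes called in either direction by edgeR. Between the hippocampus and the prefrontal cortex it was -0.095, and edgeR and DESeq2 again each called 0, with 35.2% of all genes called. In both pairs 0 members reached an unadjusted p below 0.05 by either tool. Leaving out 1 library, these medians ran from -0.19 (without amygdala control replicate 5) to -0.087 (without amygdala control replicate 3), from -0.081 (without hippocampus control replicate 2) to 0.039 (without amygdala control replicate 3) and from -0.14 (without hippocampus control replicate 4) to -0.050 (without hippocampus control replicate 2), in the order of the pairs. Control means were highest in the nucleus accumbens for 9 of the 10 members. The exception was mt-Nd6, with 1126 CPM ± 219.9 in the nucleus accumbens, 1057 ± 112 in the amygdala, 975 ± 230.4 in the hippocampus (n = 4) and 1170.5 ± 124 in the prefrontal cortex (SD, n = 5 elsewhere). The lowest mean was in the amygdala for 6 members and in the hippocampus for the other 4.

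**Figure D4:**
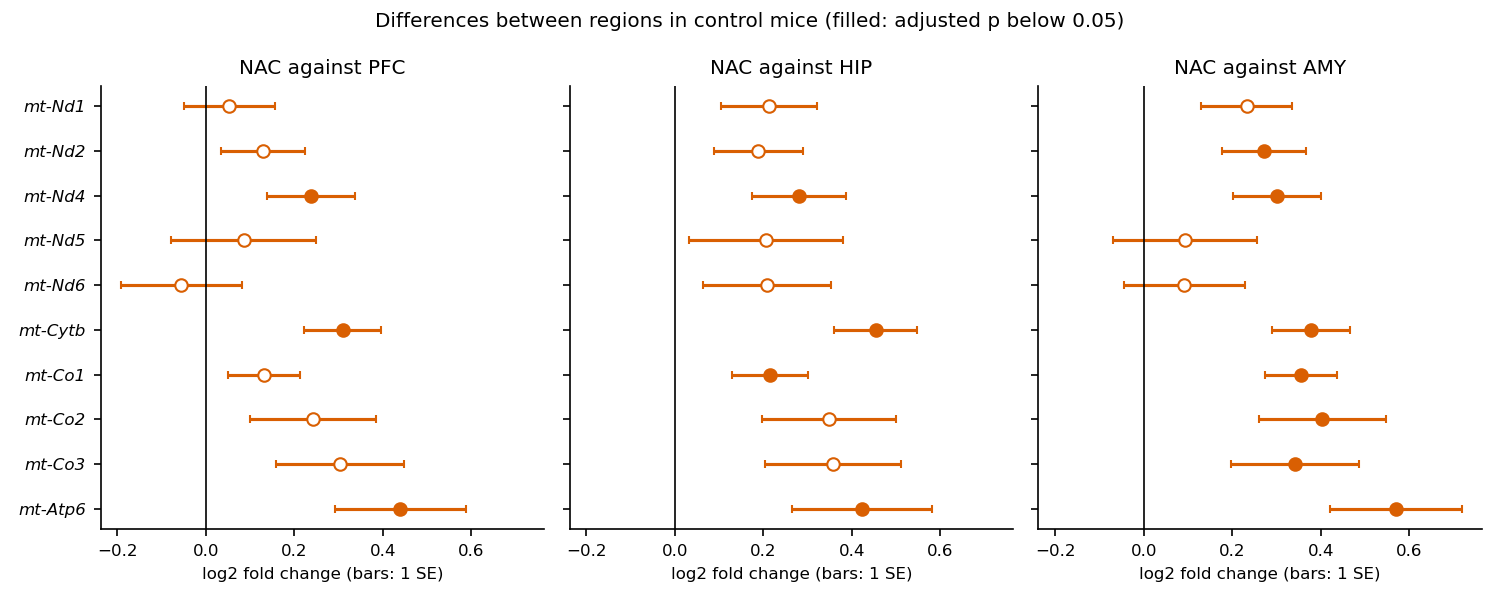
Log2 fold change of each member in the nucleus accumbens against the prefrontal cortex, the hippocampus and the amygdala of control mice (horizontal axis), with bars of 1 SE from the edgeR fit and filled points where the adjusted p was below 0.05. All 10 members are positive against the hippocampus and the amygdala, and mt-Nd6, at -0.056, is the 1 member below 0 against the prefrontal cortex.

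The region counts rest partly on 1 library. Leaving out nucleus accumbens control replicate 5, the highest library for mt-Cytb, mt-Co1 and mt-Atp6, left 3, 1 and 1 members called higher against the amygdala, hippocampus and prefrontal cortex, where 19.2%, 21.8% and 24.5% of all genes were called higher. The counts of 1 in 10 lie below those shares. The medians of the members were then 0.23, 0.16 and 0.097. Without the 2 libraries low in long transcripts, which are no controls but enter the fit, the counts were 8, 6 and 5 in the same order, with 24.3%, 25.5% and 28.9% of all genes called higher. With the mean of all 7 conditions in place of the control mice, 8, 10 and 8 members were called higher in the nucleus accumbens against the amygdala, hippocampus and prefrontal cortex, where 32.3%, 37.0% and 39.6% of all genes were called higher.

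Other transcripts of the mitochondrial genome were not called higher in the nucleus accumbens of control mice. Of 27 such genes 13 passed the filter on low counts, and by edgeR 0 were called higher in any of the 3 pairs, with medians of -0.15, -0.065 and -0.25 against the amygdala, hippocampus and prefrontal cortex. Most of the 13 were transfer RNAs, which apart from mt-Tp had median counts of at most 35 per library. Low counts therefore limit what the medians and the lack of calls can show. The transfer RNA mt-Tp was called lower against the hippocampus (-0.53, adjusted p = 0.00148) and mt-Tc against the prefrontal cortex (-1.05, adjusted p = 0.0185), while mt-Nd3, a complex I subunit, differed by 0.42, 0.36 and 0.22 in the 3 pairs without being called. Among the higher values, 1 reached an unadjusted p below 0.05, that of mt-Nd3 against the amygdala. DESeq2 values of these genes are not given here. Few nuclear genes of the same pathway were called higher either. Of 36 nuclear complex I subunits, 2 were called higher in the nucleus accumbens than in the amygdala, 0 than in the hippocampus and 2 than in the prefrontal cortex. Of 12 complex IV subunits 0 were called higher in any of the 3 pairs, and likewise 0 of 9 for complex III. Of 15 complex V subunits, 0, 0 and 1 were called higher, in the order amygdala, hippocampus and prefrontal cortex. The list of 16 genes of mitochondrial transcription and DNA maintenance moved in both directions, with 7, 6 and 9 called higher and 2, 2 and 2 called lower against the amygdala, hippocampus and prefrontal cortex. Mterf2 and Mterf3, of the mitochondrial transcription termination factor family, Tfb1m, which methylates the small ribosomal RNA, and Twnk, the replicative DNA helicase, were higher in all 3 pairs. Mgme1, an exonuclease of mitochondrial DNA maintenance, was lower in all 3. Tfam, which packages the mitochondrial genome and starts its transcription, was lower in the nucleus accumbens by -0.28 against the hippocampus (adjusted p = 0.00782, edgeR) and -0.22 against the prefrontal cortex (adjusted p = 0.0285, edgeR).

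Of 22 genes of mitochondrial RNA processing, 5, 3 and 6 were called higher in the nucleus accumbens against the amygdala, hippocampus and prefrontal cortex. In the same order, 4, 1 and 1 were called lower. Of all genes tested, 20.1%, 21.8% and 25.2% were called higher and 22%, 21.6% and 23.3% lower in these pairs. The counts of the other gene lists in these pairs, before and after, stand against the same shares. Ptcd1, a pentatricopeptide-repeat protein of mitochondrial RNA metabolism, was higher by 0.96, 0.98 and 0.99 in the same order. Of 11 regulators of mitochondrial biogenesis, Ppargc1b was higher by 0.84, 1.02 and 0.76 and Esrrb, a nuclear receptor, was lower by -2.49, -1.57 and -2.44, in the same order.

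Cell-type markers differed between the same libraries. All 10 oligodendrocyte markers were called higher in the nucleus accumbens than in the amygdala and prefrontal cortex and all 10 lower than in the hippocampus, with mean log2 CPM of 7.61 to 7.88 in the nucleus accumbens, 6.66 to 7.28 in the amygdala, 7.98 to 8.54 in the hippocampus and 5.68 to 6.38 in the prefrontal cortex. Neuron markers had lower values in the nucleus accumbens, 8.39 to 8.63, than in the amygdala, 9.01 to 9.20, the hippocampus, 8.94 to 9.16, and the prefrontal cortex, 9.26 to 9.40, with 8, 8 and 9 of 10 called lower and 1, 2 and 1 called higher. Astrocyte markers, of which 6, 5 and 5 of 10 were called lower and 1, 0 and 1 higher, ran from 6.56 to 6.77 in the nucleus accumbens, 6.81 to 7.54 in the amygdala, 7.39 to 7.48 in the hippocampus and 6.88 to 7.29 in the prefrontal cortex. No list of these 3 was at or near 0 in any region. Their part in the difference of the members was not tested.

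The second comparison asked whether the members varied with stress phenotype or drug response within a region. With 1 edgeR fit per region, 0 members were called in the 36 comparisons within regions at an adjusted p below 0.05. Of 360 member tests, 31 (8.61%) reached an unadjusted p below 0.05, against 4.47% of the 642465 gene tests, and these 31 lay in 8 of the 36 comparisons. The 10 members often shared a sign: all had lower values in 9 comparisons and all had higher values in 7. Other fits called members in 2 of the 36 comparisons, each described below: DESeq2 and edgeR with a covariate in prefrontal cortex resilient against control mice, and the edgeR fit of all 28 groups in nucleus accumbens imipramine responders against non-responders. Comparisons within a region share control or susceptible libraries. The members also largely vary together, so neither the member tests nor the shared signs are independent of each other. Part of the 31 came from imipramine responders of the nucleus accumbens and amygdala, in comparisons where 11.6% to 17.4% of all genes reached an unadjusted p below 0.05. The median log2 difference of the members ran from -0.21 to 0.17.

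The lowest median was that of resilient against control mice in the prefrontal cortex, where all 10 members had lower values and 8 reached an unadjusted p below 0.05. By edgeR 0 of 10 passed the adjusted threshold, with 0.00% of 17517 genes called and 9.36% of genes at an unadjusted p below 0.05 (5.70% lower). DESeq2 called 4 members, mt-Nd1, mt-Nd2, mt-Nd4 and mt-Nd6, each at an adjusted p of 0.0491, among 16 genes in all, 0.0913% of those tested. The sample numbers run in 5 consecutive series, and with these as a covariate edgeR called 6, adding mt-Nd5 and mt-Cytb, among 292 genes in all, 1.67%. The call therefore turns on the fit. The 5 smallest unadjusted p-values belonged to mt-Nd1, mt-Nd4, mt-Nd2, mt-Nd6 and mt-Cytb.

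mt-Nd1, a core membrane subunit of complex I, was measured at 3502, 3679, 4225 and 4255 CPM in resilient mice, against 4614, 4334 and 4735 CPM in susceptible mice and 5014, 4664, 4474, 5395 and 4418 CPM in control mice. All resilient libraries lay below all susceptible and control libraries. The log2 difference of resilient from control mice was -0.29 (SE 0.065, adjusted p = 0.453, edgeR), and that from susceptible mice -0.22 (SE 0.073, adjusted p = 0.959, edgeR).

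mt-Nd2, another membrane subunit of complex I, gave 2715, 2749, 3197 and 3249.5 CPM in resilient mice, against 3604, 3183 and 3587 CPM in susceptible mice and 3917, 3406, 3347, 3946 and 3374 CPM in control mice. Resilient libraries lay below all control libraries, and 2 of them overlapped with the lowest susceptible library. The log2 difference from control was -0.27 (SE 0.065, adjusted p = 0.453, edgeR).

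mt-Nd6, the member on the opposite strand, gave 806, 874, 999 and 1085 CPM in resilient mice, against 1096, 1086 and 1150.1 CPM in susceptible mice and 1298, 1174, 989.7, 1269 and 1122 CPM in control mice. Its resilient libraries lay below the susceptible ones by a narrow margin and overlapped with 1 control library. The log2 difference from control was -0.31 (SE 0.079, adjusted p = 0.453, edgeR).

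mt-Cytb was measured at 5703, 5897, 6775 and 6827 CPM in resilient mice, against 7303, 6787 and 7262 CPM in susceptible mice and 7244, 6926, 7053, 7976 and 7174 CPM in control mice. Resilient libraries were below every control library and overlapped with 1 susceptible library. The log2 difference from control was -0.20 (SE 0.057, adjusted p = 0.476, edgeR). Thus mt-Nd1, mt-Nd2 and mt-Cytb were lower without overlap between resilient and control libraries, which 0.824% of all genes with a mean of at least 1 CPM were.

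The other members were smaller or less clear. mt-Nd4 differed by -0.29 (SE 0.071, adjusted p = 0.453, edgeR), with 4575 to 5511 CPM in resilient and 5439.7 to 6884 CPM in control mice. mt-Nd5 differed by -0.22 (SE 0.084), mt-Co1 by -0.13 (SE 0.050) and mt-Co3 by -0.14 (SE 0.050), each at an adjusted p of 0.476 by edgeR. mt-Co2 differed by -0.13 (SE 0.069, adjusted p = 0.581, edgeR) and, with mt-Atp6, was 1 of the members that did not reach an unadjusted p below 0.05. mt-Atp6 gave 407, 542, 558 and 603 CPM in resilient mice and 528, 511, 581, 458 and 584 CPM in control mice. These groups overlapped throughout, with a log2 difference of -0.0091 (SE 0.142, adjusted p = 0.991, edgeR).

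**Figure D5:**
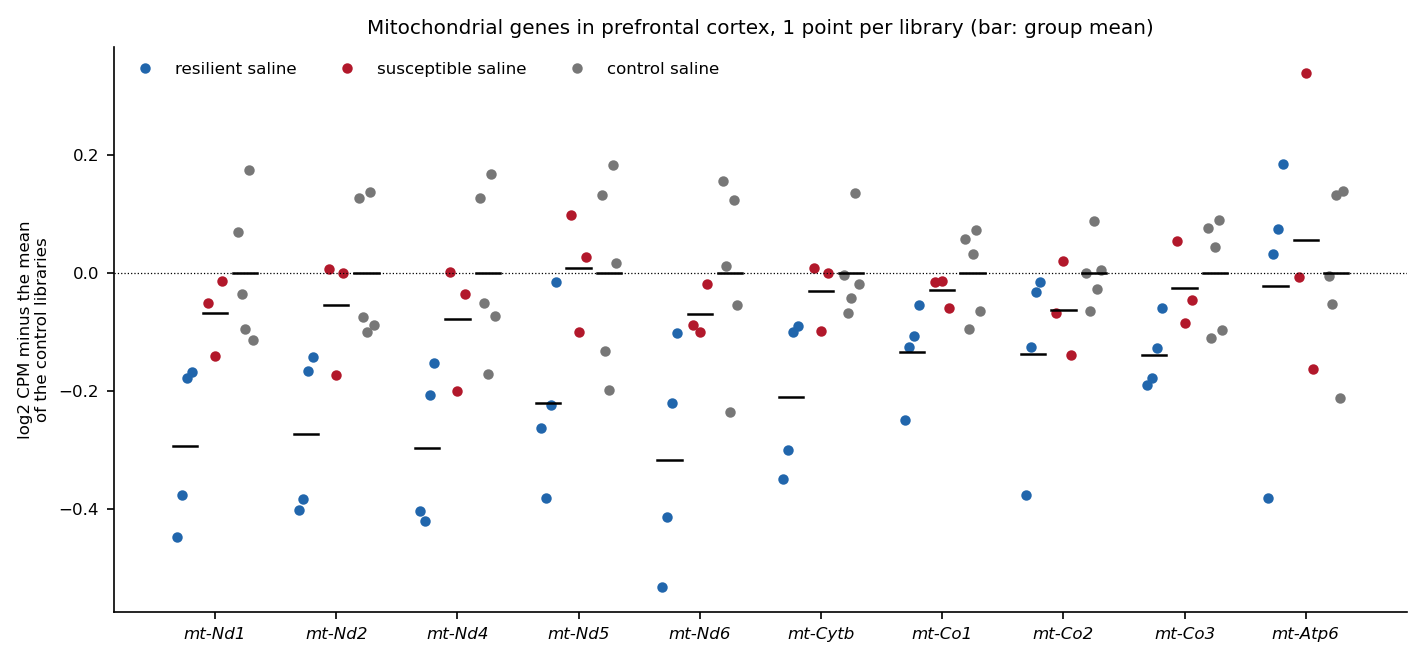
Log2 CPM of each member in prefrontal cortex libraries of resilient, susceptible and control mice given saline, less the mean of the control libraries (vertical axis), with 1 point per library and a bar at the group mean. The resilient libraries of mt-Nd1, 3502 to 4255 CPM, lie below all its susceptible and control libraries, and those of mt-Atp6 overlap with both groups.

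The summed share of counts followed the single members, with 4.46%, 4.77%, 5.08% and 5.26% in resilient mice, 5.48%, 5.23% and 5.29% in susceptible mice and 5.80%, 5.23%, 5.44%, 5.88% and 5.26% in control mice. The highest resilient value overlapped with the lowest values of both other groups. Within the 4 sample-number series that held both groups, the members' mean log2 level was lower in resilient than in control mice in all 4, by -0.43, -0.21, -0.21 and -0.027. Each value sets a single resilient library against a single control library. These libraries are part of the comparison above, so the values are not independent of it. Leaving out 1 library at a time, edgeR called from 0 to 3 members. The highest count was reached without control replicate 5, with mt-Nd1, mt-Nd2 and mt-Nd4 called among 155 genes in all.

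Other transcripts of the mitochondrial genome had lower values in the same comparison. All 12 of the other rows that were tested were lower in resilient than in control mice, with a median log2 difference of -0.51, and 5 of them reached an unadjusted p below 0.05. They included mt-Nd3, a further complex I subunit, at -0.41 (adjusted p = 0.453), and the ribosomal RNAs mt-Rnr1 at -0.29 (adjusted p = 0.476) and mt-Rnr2 at -0.20 (adjusted p = 0.505), by edgeR. Most of the 12 were transfer RNAs, with low counts in all but mt-Tp. The nuclear complex I subunits were split, 18 of 36 higher and 18 lower, with a median of -0.0030. Of 12 nuclear complex IV subunits, 8 were lower, with a median of -0.029. Among 11 regulators of biogenesis, 8 were lower, with Ppargc1a, the coactivator PGC-1alpha, at -0.21 and Esrrg, a nuclear receptor it works with, at -0.26, both at an adjusted p of 0.476 by edgeR.

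Glial markers had lower values in these libraries too. All 10 astrocyte markers were lower in resilient than in control mice, 5 at an unadjusted p below 0.05, with a list level (mean log2 CPM) of 6.78 to 6.94 in resilient, 6.92 to 6.97 in susceptible and 6.88 to 7.29 in control mice. All 10 oligodendrocyte markers were lower, 0 of them at an unadjusted p below 0.05, with 5.68 to 5.88 in resilient, 6.02 to 6.26 in susceptible and 5.68 to 6.38 in control mice. Neuron markers lay at 9.27 to 9.35 in resilient and 9.26 to 9.40 in control mice. The part of the glial markers in the result was not tested.

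Against susceptible mice, resilient mice again had lower values for all 10 members in the prefrontal cortex, with a median of -0.19 and 6 members at an unadjusted p below 0.05, where 4.27% of all genes were. edgeR and DESeq2 each called 0. Beside mt-Nd1, these were mt-Nd2 at -0.21, mt-Nd4 at -0.21, mt-Nd5 at -0.22, mt-Nd6 at -0.23 and mt-Cytb at -0.17, each at an adjusted p of 0.959 by edgeR. Resilient libraries of mt-Nd1 and mt-Nd6 lay below all susceptible libraries, which 3.82% of the genes with a mean of at least 1 CPM did. Of 36 nuclear complex I subunits, 30 were higher here, with a median of 0.066. All 10 oligodendrocyte markers were lower, 7 at an unadjusted p below 0.05, with a median of -0.34. Susceptible against control mice had a member median of -0.045 (-0.067 without susceptible replicate 1 to -0.020 without control replicate 4), with 0 members at an unadjusted p below 0.05 and 3.10% of genes, and 0 called by edgeR or DESeq2. These comparisons share libraries with the one above, so they are not independent of it.

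A test of any difference among the 7 conditions of the prefrontal cortex gave 7 members at an unadjusted p below 0.05 by edgeR: mt-Nd2, mt-Nd1, mt-Cytb, mt-Nd4, mt-Nd6, mt-Co3 and mt-Co1, in that order. By edgeR 0 passed adjustment, the smallest adjusted p being 0.405 for mt-Nd2, where 0.137% of all genes were called and 5.87% reached an unadjusted p below 0.05. With the series of sample numbers as a covariate, 5 members were called, with 0.411% of all genes. DESeq2 was not run for this test. In the nucleus accumbens, hippocampus and amygdala 0 members reached an unadjusted p below 0.05 in it, where 3.63%, 6.14% and 5.97% of all genes did.

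In the hippocampus, the members had lower values in ketamine non-responders than in responders and in susceptible mice given saline. mt-Atp6 was at 711, 609 and 607 CPM in responders, 416, 496 and 501 CPM in non-responders and 563, 697 and 623 CPM in susceptible mice given saline. The non-responders did not overlap with either group. By edgeR the log2 difference of non-responders from susceptible mice was -0.41 (SE 0.167, adjusted p = 0.754), and that of responders from non-responders 0.44 (SE 0.167, adjusted p = 0.699).

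mt-Co2 was at 5832, 5387 and 5924 CPM in responders, 4536, 5086 and 5306 CPM in non-responders and 5523, 5932 and 5552 CPM in susceptible mice given saline, again with no overlap of the non-responders. mt-Co1 was at 17569.7, 15437 and 17730.5 CPM in responders, 13379, 14310.4 and 16436 CPM in non-responders and 17241, 17229.6 and 15993 CPM in susceptible mice given saline. Its highest non-responder library overlapped with both other groups. Both genes are core subunits of complex IV.

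Non-responders against susceptible mice had lower values for all 10 members, with a median of -0.18. Of these, 4 reached an unadjusted p below 0.05, against 5.73% of all genes: mt-Co1 at -0.19 (adjusted p = 0.734), mt-Atp6, mt-Co2 at -0.18 (adjusted p = 0.828) and mt-Nd6 at -0.37 (adjusted p = 0.836), by edgeR. Responders against non-responders had higher values for all 10, with a median of 0.17 and 3 at an unadjusted p below 0.05, mt-Atp6, mt-Co1 at 0.19 and mt-Co2 at 0.19, against 6.94% of all genes. Single libraries moved both medians: they were -0.11 and 0.10 without non-responder replicate 1, and -0.27 and 0.26 without non-responder replicate 3, while the second was also 0.10 without responder replicate 1. edgeR and DESeq2 each called 0 members in both comparisons, which share the non-responder libraries. Of all genes, 8.73% were lower without overlap in non-responders than in susceptible mice and 5.25% were higher without overlap in responders than in non-responders.

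Markers of neighbouring tissue differed between these hippocampal groups. All 10 thalamic markers were higher in non-responders than in susceptible mice, 8 at an unadjusted p below 0.05 and Tnnt1 called at a log2 difference of 3.22 (adjusted p = 0.0318, edgeR), with list levels of 4.01 to 6.18 mean log2 CPM in responders, 3.83 to 4.14 in non-responders and 2.33 to 2.42 in susceptible mice. All 10 choroid plexus markers were higher too, with 1.40 to 5.49 in responders, 0.62 to 5.26 in non-responders and 0.65 to 0.90 in susceptible mice. Responders against non-responders also had higher values for all 10 thalamic markers, with a median of 1.22. Neither list was at 0 in any of these groups, and their part in the member values was not tested.

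In the imipramine responders of the nucleus accumbens and amygdala, single members differed in opposite directions, and in each of these groups 1 library low in long transcripts was far from the others. mt-Co3 in the nucleus accumbens was at 6586, 7942 and 21979 CPM in responders, 8915, 7849, 8125 and 8657 CPM in non-responders and 9012, 8250.0 and 8506 CPM in susceptible mice given saline. mt-Nd5 there was at 3969, 4146 and 1668 CPM in responders, 5347, 4986, 4335 and 5495 CPM in non-responders and 4763, 4068 and 5911 CPM in susceptible mice given saline. In both genes responder replicate 3 lies far from the other two, upward in mt-Co3 and downward in mt-Nd5. In the amygdala, mt-Co2 was at 5283, 12868 and 4669 CPM in responders, 5288, 5566, 4674 and 5407 CPM in non-responders and 5856, 5298 and 4820.2 CPM in susceptible mice given saline.

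With all libraries, responders against non-responders in the nucleus accumbens had 4 members at an unadjusted p below 0.05, mt-Nd2 (-0.40), mt-Nd5 (-0.62), mt-Atp6 (-0.49) and mt-Co3 (0.55), where 17.4% of all genes were, by edgeR. Responders against susceptible mice had 3 there, mt-Atp6 (-0.67), mt-Nd2 (-0.45) and mt-Nd5 (-0.59), where 11.6% of all genes were. In the amygdala, mt-Co2 (0.55) and mt-Co3 (0.56) reached it against non-responders, where 15.3% of all genes did, and mt-Co2 (0.53) against susceptible mice, where 12.2% did. DESeq2 and edgeR with 1 fit per region each called 0 members in these 4 comparisons, with 0.00% to 0.00544% of all genes called. The edgeR fit of all 28 groups called mt-Nd2 (-0.41, adjusted p = 0.0188), mt-Nd5 (-0.63, adjusted p = 0.0339) and mt-Co3 (0.54, adjusted p = 0.0361) in nucleus accumbens responders against non-responders, where it called 9.72% of all genes. The call there therefore turns on the fit and on single libraries. Without nucleus accumbens responder replicate 1 or 2, which leaves replicate 3 and 1 other, edgeR called 3 and 4 members against non-responders (19.5% and 13.9% of all genes) and 1 each against susceptible mice (8.19% and 5.26%). Without amygdala responder replicate 1 or 3, it called 2 and 3 against non-responders (8.54% and 8.81% of all genes). Without the 2 libraries low in long transcripts, mt-Co3 differed by -0.20 in the nucleus accumbens and -0.039 in the amygdala against non-responders, and mt-Co2 by -0.063 against non-responders and -0.085 against susceptible mice in the amygdala. In the nucleus accumbens mt-Nd5 then differed by -0.31 against non-responders and -0.29 against susceptible mice, mt-Nd2 by -0.32 and -0.38, and mt-Atp6 by -0.34 and -0.53, in the same order.

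Without those libraries, all 10 members had lower values in nucleus accumbens responders, with a median of -0.34 against susceptible mice and -0.24 against non-responders. Of the 10, 7 reached an unadjusted p below 0.05 against susceptible mice, as 2.89% of all genes did, but 0 were called and the smallest adjusted p was 1.00, by edgeR. That comparison then held 2 responder libraries. In the amygdala the medians without the library were -0.092 against susceptible mice and -0.011 against non-responders. Whether a difference varied between regions was tested as an interaction in 1 fit of all libraries, and 0 of the members were called, with a smallest adjusted p of 0.317 by edgeR. At an unadjusted p below 0.05 were mt-Nd2 and mt-Atp6 for imipramine responders against susceptible mice, as were 5.83% of all genes, and mt-Nd2 and mt-Co3 for responders against non-responders, as were 12.0%. For resilient against control mice 0 members reached it, where 5.80% of all genes did, so the prefrontal cortex was not shown to differ from the other regions in that comparison. DESeq2 was not run for this test.

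The patterns most like that of the members were sought over 99 libraries and 13314 genes other than the members. Likeness was the Pearson r between a gene's deviations from its group mean and the mean deviation of the members. Other genes of the mitochondrial genome were not left out, and they reached an r of at most 0.56. The 6 highest were Ppm1b (r = 0.67), C330007P06Rik (0.63), the unnamed gene ENSMUSG00000090378 (0.62), Pabpc1 (0.62), Scg3 (0.62) and Ankrd40 (0.60). The 4 lowest were Tubgcp2 (-0.67), Sugp2 (-0.62), Exoc1 (-0.62) and Zer1 (-0.60), and the median of all genes was 0.036. Spearman's rho was 0.59, 0.60, 0.66, 0.64, 0.62 and 0.59 for the 6 highest and -0.68, -0.65, -0.65 and -0.59 for the 4 lowest, in the order named. The libraries share preparation and depth across genes, so these values describe likeness only. Without the 2 libraries low in long transcripts, ENSMUSG00000090378 stood highest at 0.90. This identifier matched no symbol, so its place in the genome was not determined. Scg3 (0.56) and Ankrd40 (0.56) then gave way to Ppp1r9b (0.60) and Tmem184c (0.57) among the 6 highest, and Exoc1 (-0.55) and Zer1 (-0.53) to Rae1 (-0.59) and Coq6 (-0.57) among the 4 lowest. Over those 97 libraries the median r of the 36 nuclear complex I subunits was 0.030, against 0.30 over all 99. The highest list median over the 97 was that of 10 endothelial markers, 0.42, against 0.39 over all 99. The lowest was that of 4 RNAs retained in the nucleus, -0.36, against -0.45 over all 99. The part of these lists in the members' variation was not tested.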

How the data were processed

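RNA from pools of 2 mice was extracted with TriZol and made into poly-A-selected TruSeq libraries, read as 50-base pairs, per the labels' protocols. The authors deposited raw counts, not normalized, in 1 table with a row per Ensembl identifier. Per the submitters' processing notes, Bowtie2 2.1.0, TopHat2 2.0.9, HTSeq 0.6.0 and build NCBIM37 were used; counting settings and annotation release are not given in the sources used here. Symbols, lengths and sequences came from GENCODE M21 (GRCm38), which matched 86.6% of identifiers, so no coordinates are given.

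Differences were tested with edgeR 4.0.16 in R 4.3.3 (quasi-likelihood F-test with robust dispersion, TMM scaling, filterByExpr with a minimum count of 10, 1 fit per region), and p-values were adjusted by the Benjamini-Hochberg method over all genes tested. Regions were compared in 1 fit of 28 groups. CPM values use TMM factors over all 99 libraries, so levels and fitted differences can part slightly. DESeq2 1.42.0, other scalings, no filter, the 5 series of consecutive sample numbers as a covariate and leaving out single libraries were alternatives. Leaving out the 2 libraries low in long transcripts was chosen after seeing the data. The edgeR step was tested on simulated counts. No 2 libraries of a group were alike within sampling noise (132 pairs, chi-square at least 4.63 times its degrees of freedom), so the spread between libraries set the precision.

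The members and gene lists were chosen with earlier results of these data known. All members are named. Of other lists, at most 6 genes past the test per comparison, or otherwise the 2 with the smallest p, are named; for regions, at most 4 per list by fold change; for likeness, the 6 highest and 4 lowest. Labels call libraries biological replicates.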

Additional observations from a re-analysis of the deposited data

Results flagged for a closer look

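In 120 combinations of a member and a group of 4 or 5 libraries, and in the summed share of the members in 12 such groups, 3 cases held a library far from the others by Dixon's criterion, each for a single member; chance alone flags about 1 in 20 groups. All 3 lay in the amygdala. mt-Nd5 was 5669 CPM in resilient replicate 1, above the other resilient libraries at 3973 to 4157 CPM. mt-Nd2 was 3015 CPM in imipramine non-responder replicate 1, below the other libraries of that group at 3189.9 to 3221 CPM. mt-Atp6 was 441.1 CPM in imipramine non-responder replicate 3, against 561 to 573 CPM in the others.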

How the results depend on the processing

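No paired analysis was possible because the labels give no replicate numbers shared across groups; the series of sample numbers, which hold libraries of several groups, were fitted as a block instead. Of 354 counts of called members in settings other than leaving out a single library, 324 were equal to the count reported, 17 were higher and 13 were lower, each of the 13 by 1. Most reported counts were 0, so equal counts mostly set 0 against 0. In the 3 nucleus accumbens pairs of control mice the counts moved in nearly every setting. They went from 7 to between 6 and 8 against the amygdala and from 4 to between 3 and 10 against the hippocampus. Against the prefrontal cortex they went from 3 to between 2 and 8. With the series of sample numbers added as a covariate, 5 members were called in the prefrontal cortex test of any difference, 6 in resilient against control and 7 in the nucleus accumbens against the hippocampus, where 4 were called without it. Its medians moved to -0.13 for nucleus accumbens ketamine responders against susceptible mice and, in the prefrontal cortex, to 0.063 for imipramine responders, 0.048 for ketamine non-responders and 0.036 for ketamine responders against susceptible mice, and to -0.022 for ketamine responders against non-responders. DESeq2 called 4 in prefrontal cortex resilient against control. The 1 fit of 28 groups called 3 in nucleus accumbens imipramine responders against non-responders. Scaling by total counts called 0 in the amygdala against the prefrontal cortex, 8 in the nucleus accumbens against the hippocampus and 7 against the prefrontal cortex; without the filter the first was also 0. The mean of 7 conditions called 4 between amygdala and hippocampus, 2 between hippocampus and prefrontal cortex, and 10 and 8 in the nucleus accumbens against the hippocampus and prefrontal cortex, and the amygdala median against the prefrontal cortex was -0.039. Without the 2 libraries low in long transcripts, 5 were called in the nucleus accumbens against the prefrontal cortex. Medians for imipramine responders were then -0.011 against non-responders and -0.092 against susceptible mice in the amygdala, and -0.24 and -0.34 in the nucleus accumbens, with mt-Co2 reversed at -0.063 and -0.085 in the amygdala, and mt-Co3 at -0.039 in the amygdala and -0.20 in the nucleus accumbens against non-responders. The cause of the other changes was not tested. The share of all genes called is not given for every setting here. Without that share, a count shows only how calls moved with the setting, not whether members were called more often than other genes.

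Leaving out 1 library at a time, calls ranged from 1 to 4 in the nucleus accumbens against the prefrontal cortex, 1 to 8 against the hippocampus and 3 to 8 against the amygdala, from 0 to 1 in the amygdala against the prefrontal cortex (0 without amygdala control 1 or prefrontal cortex control 4) and from 0 to 1 in the hippocampus against the prefrontal cortex. Against the hippocampus, 1 was called without hippocampus control 1, 2 without nucleus accumbens control 3 or hippocampus control 2, and 8 without nucleus accumbens control 4. Against the amygdala, 4 were called without amygdala control 3. Calls in prefrontal cortex resilient against control ranged from 0 to 3. For imipramine responders against non-responders in the amygdala, calls ranged from 0 to 3, the median from -0.011 to 0.25, mt-Co2 from -0.063 to 0.81 and mt-Co3 from -0.039 to 0.83; in the nucleus accumbens, calls from 0 to 4, the median from -0.24 to 0.060 and mt-Co3 from -0.20 to 0.86. Against susceptible mice, the amygdala median ranged from -0.092 to 0.16 and mt-Co2 from -0.085 to 0.80, and the nucleus accumbens calls from 0 to 1 and the median from -0.34 to 0.0040. Prefrontal cortex medians ranged from 0.0038 to 0.075 for imipramine responders and from -0.053 to 0.020 for ketamine responders against susceptible mice. Shares of all genes called are given above for some of these settings only. The other counts show only how calls moved.

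Member counts of at least 6834 per library leave the spread between libraries, not depth, as the limit.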

Other observations

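Transcripts of the mitochondrial genome outside the 10 members were measured very unevenly. mt-Rnr2 and mt-Rnr1, the ribosomal RNAs, had median counts of 88589 and 52108 per library, and mt-Nd3 had 16568. mt-Atp8, a small subunit of the ATP synthase that shares 43 bases with mt-Atp6, had 2296. mt-Nd4l, which shares 7 bases with mt-Nd4, had a median count of 1 and was at 0 in 48 of 99 libraries. Of its windows of 50 bases, 98.8% also occurred in the nuclear copy Gm10222, which had a median count of 4. Whether its low count stems from how such reads were counted was not tested. Among the transfer RNAs, mt-Tp stood at a median of 1257 and the others at 0 to 35. Among nuclear copies, median counts were 241 for Gm10288, 80 for Gm13340, 49 for Gm15564 and 35 for Gm13341. Gm28661, Gm28437, Gm10925, Gm28439 and Gm29216 are the copies that share most windows with mt-Co2, mt-Co3, mt-Atp6, mt-Nd4 and mt-Co1. No row of the count table matched their symbols, so the medians of the other copies do not bear on them.

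The share of the members' counts in mt-Atp6 differed between the 5 series of sample numbers, with medians of 0.923%, 1.07%, 1.15%, 0.869% and 1.08% in series 1 to 5. The ranges of the series overlapped, and the labels do not say what a series stands for.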
